A study of Homo sapiens with 20 samples.

Results

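Keto acids of aromatic amino acids are handled by aminotransferases, a tautomerase and the enzymes of tyrosine breakdown, and the 8 genes described here are AADAT, KYAT1, KYAT3, GOT1, GOT2, MIF, GSTZ1 and FAH. They were chosen by name, and every probe set with 1 of these symbols as its only symbol was taken. All 8 were measured, each by 1 probe set, among 11282 named genes. KYAT1 and KYAT3 carry their older symbols CCBL1 and CCBL2 in the array annotation.

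The cells were U-87MG, an established human glioblastoma line, so the data are those of 1 line in culture. Groups of 5 arrays each were treated for 24 h with HPP (hydroxyphenylpyruvic acid), PP (phenylpyruvic acid) or I3P (indole-3-pyruvic acid), each at 40 µM, or with DMSO, the solvent that all groups received at no more than 0.2%. All groups were grown in high glucose medium with 10% serum, 2 mM L-glutamine and 1 mM sodium pyruvate, itself a keto acid, and with penicillin and streptomycin. The study asked how such keto acids act on the aryl hydrocarbon receptor (AHR), which binds small aromatic molecules and then switches genes on.

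An aminotransferase moves an amino group between an amino acid and a keto acid, with pyridoxal phosphate as its cofactor, and the reaction runs in both directions. I3P, HPP and PP are the products that tryptophan, tyrosine and phenylalanine give in such a reaction. KYAT1, KYAT3 and AADAT are known as kynurenine aminotransferases because they also turn kynurenine into kynurenic acid. GOT1 in the cytosol and GOT2 in mitochondria are the aspartate aminotransferases. Both are enzymes of the malate-aspartate shuttle, which moves reducing equivalents across the mitochondrial membrane. MIF is a cytokine that also has an enzyme activity, the interconversion of the keto and enol forms of PP and HPP. HPP lies on the route of tyrosine breakdown, whose last steps are the isomerase GSTZ1 and the hydrolase FAH, which releases fumarate and acetoacetate.

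The promoters of AADAT and FAH are shown because these were the members with an unadjusted p under 0.05 for I3P against DMSO in a fit that takes up the replicate number (the block). Each window runs from 250 bases before to 50 bases after a start site of RefSeq, build GRCh38.p14, 5′ to 3′ on the gene's strand. Capitals mark GCGTG, the core of the sequence that AHR and its partner bind, or CACGC, the same core on the other strand. The AADAT window is chr4:170089907-170090206 on the minus strand, and the FAH window is chr15:80152749-80153048 on the plus strand.
AADAT: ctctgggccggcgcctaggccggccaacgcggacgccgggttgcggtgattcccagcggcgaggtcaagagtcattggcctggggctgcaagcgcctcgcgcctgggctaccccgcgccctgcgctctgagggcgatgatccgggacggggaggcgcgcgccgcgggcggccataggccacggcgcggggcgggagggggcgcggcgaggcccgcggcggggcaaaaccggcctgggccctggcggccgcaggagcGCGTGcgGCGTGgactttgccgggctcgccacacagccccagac
FAH: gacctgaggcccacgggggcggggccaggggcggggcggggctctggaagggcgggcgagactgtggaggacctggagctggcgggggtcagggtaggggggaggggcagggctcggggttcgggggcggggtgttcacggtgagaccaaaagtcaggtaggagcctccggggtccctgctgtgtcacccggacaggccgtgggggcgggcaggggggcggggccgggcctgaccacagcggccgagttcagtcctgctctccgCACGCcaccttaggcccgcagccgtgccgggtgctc
The AADAT window holds the core at bases 257 to 261 and 264 to 268, counted from 1 at the 5′ end, and the FAH window at bases 265 to 269. These matches all lie after the start site. Other start sites of the same genes, 2 for AADAT and 1 for FAH, had no core, so the windows shown are those with a match. Of the 13 promoter windows of the 8 members 5 held the core, those of GOT1, GOT2 and GSTZ1 among them, and the windows of MIF, KYAT1 and KYAT3 did not. Of all 35116 windows of this length 36.5% held it. A match is a description of letters and not of binding.

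A response to I3P could be seen on these arrays in TIPARP, CYP1B1 and AHRR. These genes were chosen with earlier results of these data known, so they are not an independent check. TIPARP, an ADP-ribosyltransferase induced by AHR, rose with I3P (log2 difference from DMSO 1.03, 95% interval 0.68 to 1.38, adjusted p = 0.0234), and so did the cytochrome P450 gene CYP1B1 (0.79, interval 0.50 to 1.07, adjusted p = 0.0339). Left without 1 array or 1 replicate number, the TIPARP call was lost in 11 of 25 refits without the block (without I3P replicate 1, 2, 3 or 4, DMSO replicate 1, 2, 4 or 5, or number 1, 2 or 4), though the difference stayed between 0.97 and 1.13. The CYP1B1 call was lost in 15 (those 11 and without I3P replicate 5, HPP replicate 4, PP replicate 4 or number 5), with differences of 0.70 to 0.87 and adjusted p up to 0.347 for both genes. With the block both rose at an adjusted p of 4.91e-06 and 1e-04. With HPP, TIPARP was at 0.57 (adjusted p = 1 without and 0.0128 with the block) and CYP1B1 at 0.36 (adjusted p = 1 and 0.324), and with PP they were at -0.065 and -0.057 (adjusted p = 1 in both fits). With I3P, AHRR, the AHR repressor, was at 0.71 (adjusted p = 0.164 without and 0.000198 with the block). Each p here is from limma, adjusted by Benjamini-Hochberg over all genes, with 0.05 as the threshold, and is given without and with a block for the replicate number, since same-number arrays moved together. The deposited values are log2 signals after the robust multi-array average (RMA), with array medians of 9.23 to 9.28, and 5 arrays a group limit the precision. The glioblastoma markers VIM, CD44, FN1, SPARC and TNC averaged between 11.51 and 13.37 in the DMSO arrays, while NES was at 8.48 and GFAP at 8.51. The 3 blood and microglial markers measured averaged 8.02 (PTPRC) to 8.95 (ITGAM) there. The 5 epithelial and neuronal markers averaged 8.37 (EPCAM) to 10.06 (SNAP25), so level alone did not set NES and GFAP apart. None of all these markers passed in a comparison of treatments. SOX2, OLIG2 and S100B were not analysed here.

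None of the 8 members passed the test with any compound against DMSO. With I3P 0 of 8 passed without the block, where 0.0798% of all genes did, and 0 of 8 with the block, where 0.603% did. With HPP the count was 0 of 8 in both fits, against 0% of all genes without and 0.0443% with the block, and with PP it was 0 of 8 against 0% in both. In these 24 comparisons the log2 differences lay between -0.19 for KYAT3 with PP and 0.19 for FAH with I3P. The 95% intervals, unadjusted for multiple testing, reached down to -0.53 and up to 0.46, both for KYAT3, a 0.692-fold and a 1.38-fold level. For the other 7 members they reached -0.425 and 0.38, or 0.745-fold and 1.30-fold. KYAT1, GSTZ1 and KYAT3 averaged 8.32, 8.61 and 8.73 over the 20 arrays, below the array medians of 9.23 to 9.28. RMA can understate changes of dim genes, so the bounds of these members are bounds on the signal. How near they lay to background was not tested. Missing the threshold does not show that a level was equal. Differences beyond these bounds could miss it too without the block, as TIPARP with HPP did at 0.57 and AHRR with I3P at 0.71. Both of these passed with the block. A moderated F test over the 4 groups passed for 0 of 8 members too, against 0.0886% of all genes without and 0.505% with the block.

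**Figure D1:**
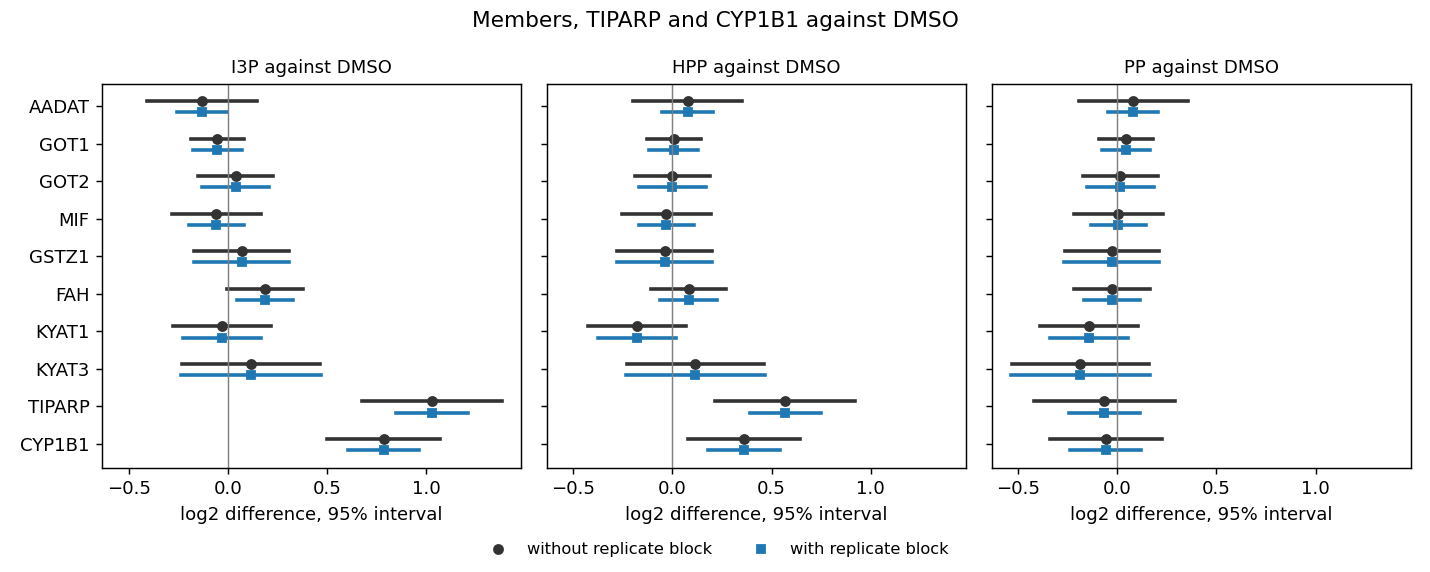
Log2 difference from DMSO (horizontal axis) of the 8 members, TIPARP and CYP1B1 (rows) for I3P, HPP and PP, with 95% intervals without the replicate block (grey circles) and with it (blue squares), 5 arrays per group. Every member's interval without the block includes 0 in each panel, while those of TIPARP and CYP1B1 with I3P and HPP do not. With the block, those of AADAT (-0.26 to -0.002) and FAH (0.045 to 0.33) with I3P exclude 0 too, though neither passed after adjustment. The intervals are unadjusted, and TIPARP and CYP1B1 with HPP did not pass without the block.

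The median absolute log2 difference of the 8 was 0.063 with I3P, 0.058 with HPP and 0.036 with PP, beside 0.070, 0.055 and 0.054 over all genes. Of the 8 members 4 were above DMSO and 4 below with each compound. The groups of arrays overlapped for every member with each compound, so that 0 of 8 were separated, against 0.833% of all genes with I3P, 0.133% with HPP and 0.213% with PP. An unadjusted p under 0.05 was reached by 0 of 8 members without and 2 of 8 with the block for I3P, against 4.51% and 11% of all genes. For HPP it was reached by 0 of 8 in both fits, against 1.43% and 4.97%, and for PP by 0 of 8, against 1.54% and 4.25%.

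AADAT, a mitochondrial kynurenine aminotransferase, had its lowest mean with I3P. With I3P its replicates 1 to 5 were at 9.48, 9.69, 9.76, 9.63 and 9.26 log2, against 9.59, 9.81, 9.88, 9.77 and 9.40 with DMSO. The 2 groups overlapped across most of their range, yet I3P was below DMSO in 5 of 5 same-number pairs, by between 0.11 and 0.15. The difference was -0.13 (SE 0.132, adjusted p = 0.999 without the block). With the block the SE was 0.0603 and the interval -0.26 to -0.002, with an unadjusted p of 0.0471 and an adjusted p = 0.449, so it did not pass. With HPP the replicates were at 9.74, 9.98, 10.03, 9.58 and 9.51, and with PP at 9.71, 9.81, 10.13, 9.78 and 9.43. Both means lay slightly above that of DMSO, by 0.076 for HPP (4 of 5 pairs) and 0.081 for PP (5 of 5 pairs), and neither passed (adjusted p = 1 in both fits). The same-number differences lay between -0.19 and 0.17 for HPP and between 0.002 and 0.24 for PP. The means ran from PP through HPP and DMSO down to I3P, and the I3P array was the lowest of the 4 arrays in 4 of 5 replicate numbers.

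KYAT1, which also uses glutamine and phenylalanine as amino donors, had its highest mean with DMSO. Its replicates 1 to 5 were at 8.53, 7.94, 8.01, 8.51 and 8.13 with HPP, against 8.59, 8.47, 8.27, 8.53 and 8.16 with DMSO. HPP was below DMSO in 5 of 5 pairs, but by 0.53 for replicate 2 and by 0.018 for replicate 4. The difference was -0.18 (SE 0.118, interval -0.425 to 0.069, adjusted p = 1 in both fits). With PP the mean was 8.26 ± 0.154, a difference of -0.14, and with I3P 8.38 ± 0.126, a difference of -0.027, against 8.405 ± 0.182 with DMSO (SD, n = 5 each). The 4 means were not told apart beyond the spread of their arrays.

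KYAT3, a close relative of KYAT1, was the member with the largest spread within groups, an SD of 0.282 pooled over the 4 groups. With I3P its replicates 1 to 5 were at 8.67, 8.62, 8.46, 9.26 and 9.19, against 8.865, 8.55, 9.09, 8.32 and 8.79 with DMSO. The I3P arrays thus split into 3 values of at most 8.67 and 2 of at least 9.19, and the same-number differences ran from -0.63 to 0.935. The mean difference was 0.12 (SE 0.166, adjusted p = 0.999). With HPP the replicates were at 8.89, 8.74, 9.31, 8.62 and 8.63, and with PP at 8.49, 8.55, 8.77, 8.48 and 8.39. PP had the lowest mean, 0.19 below DMSO, and did not pass (adjusted p = 1 in both fits).

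Of the members the aspartate aminotransferase GOT1 had the narrowest intervals in both fits, with an SE of 0.0648 without and 0.0583 with the block, and GOT2 came next only without the block, at 0.0909. GOT1 was at 10.80 ± 0.11 with I3P, 10.86 ± 0.0609 with HPP and 10.90 ± 0.0147 with PP, against 10.855 ± 0.105 with DMSO (log2, SD, n = 5 each). Its intervals against DMSO lay between -0.19 and 0.18 for the 3 compounds, between a 0.878-fold and a 1.13-fold level. GOT2 was at 11.57 ± 0.16 with I3P, 11.53 ± 0.166 with HPP and 11.54 ± 0.0846 with PP, against 11.53 ± 0.132 with DMSO. Its means spanned 0.04, and its intervals lay between -0.19 and 0.23. In the I3P group GOT1 replicate 4 was low at 10.62, and in the DMSO group replicate 1 was low at 10.70. Neither gene's groups were separated in any comparison.

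MIF, the tautomerase that acts on PP and HPP, had means that spanned 0.063 over the 4 groups. It averaged 11.70 ± 0.0863 with I3P, 11.73 ± 0.196 with HPP and 11.765 ± 0.20 with PP, against 11.76 ± 0.185 with DMSO (log2, SD, n = 5 each). The differences from DMSO were -0.057, -0.032 and 0.006 (adjusted p = 0.999, 1 and 1), with intervals between -0.28 and 0.23. I3P and HPP were each below DMSO in 4 of 5 pairs, and PP above it in 4 of 5. The same-number differences lay between -0.14 and 0.13 for I3P, -0.14 and 0.023 for HPP, and -0.24 and 0.20 for PP.

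FAH, the last enzyme of tyrosine breakdown, had the largest difference from DMSO of any member with I3P. With I3P its replicates 1 to 5 were at 9.91, 10.09, 9.87, 10.06 and 9.66, against 9.74, 9.87, 9.61, 9.77 and 9.65 with DMSO. I3P was above DMSO in 5 of 5 pairs, by 0.003 in replicate 5 and by 0.17 to 0.29 in the others, and the groups overlapped through I3P replicates 3 and 5. The difference was 0.19, 1.14-fold (SE 0.0912, interval -0.003 to 0.38, unadjusted p = 0.0529, adjusted p = 0.999). With the block the interval was 0.045 to 0.33 and the unadjusted p 0.013, and it did not pass (adjusted p = 0.294). With HPP the mean was 9.81 ± 0.111 and with PP 9.705 ± 0.161, against 9.73 ± 0.101 with DMSO. The order of the means was I3P, HPP, DMSO and PP, and no neighbours in it differed beyond their spread.

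GSTZ1, the isomerase one step before FAH, had no such order. It was at 8.68 ± 0.141 with I3P, 8.57 ± 0.147 with HPP and 8.58 ± 0.164 with PP, against 8.61 ± 0.261 with DMSO (log2, SD, n = 5 each). The DMSO arrays alone ran from 8.27 in replicate 3 to 8.95 in replicate 5. The differences from DMSO were 0.07, -0.04 and -0.027, with intervals between -0.28 and 0.31 (adjusted p = 0.999, 1 and 1).

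**Figure D2:**
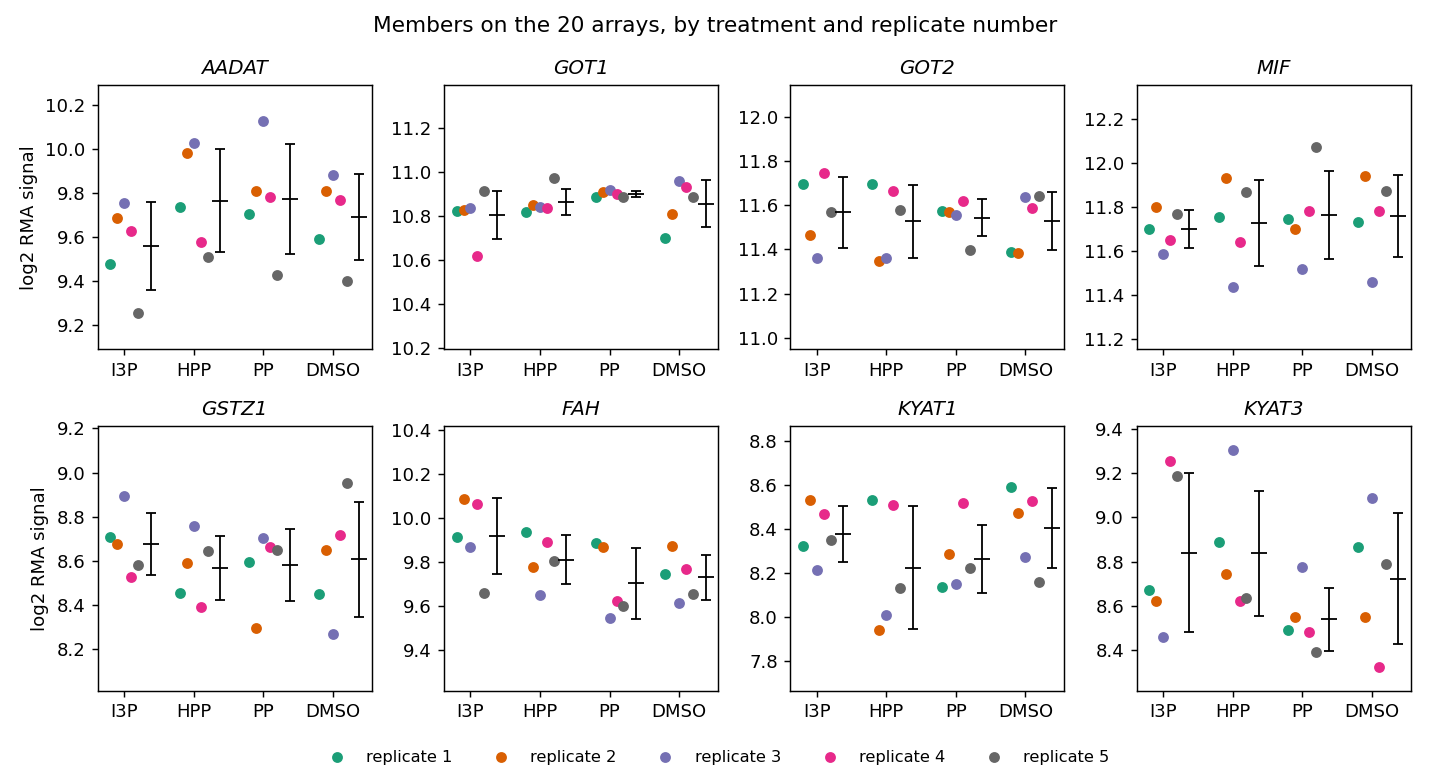
Log2 RMA signal (vertical axis, each panel spanning the same range of 1.2) of the 8 members on the 20 arrays by treatment, with points coloured by replicate number and bars for the mean and SD of 5 arrays. The groups overlap for every member, and in the AADAT panel replicate 5 is the lowest point of each group.

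The compounds were compared directly in 3 pairs at the same dose and time, and 0 of 8 members passed in each. Of all genes 0% passed without and 0.115% with the block for I3P against HPP, 0.0886% and 0.904% for I3P against PP, and 0% and 0.0266% for HPP against PP. Separated groups were seen for 0 of 8 members in each pair, against 0.674%, 1.15% and 0.293% of all genes. The side chain is the same in all 3 compounds, on an indole in I3P, on a plain phenyl in PP and on a phenol in HPP. AADAT was lower with I3P than with PP in 5 of 5 pairs, by 0.12 to 0.37, a difference of -0.21 (interval -0.49 to 0.066, adjusted p = 0.999). With the block the interval was -0.34 to -0.083, the unadjusted p 0.00293 and the adjusted p = 0.128, the lowest of any member in any comparison or alternative. Against HPP, AADAT with I3P was at -0.205 (interval with the block -0.33 to -0.078, adjusted p = 1 without and 0.261 with the block), lower in 4 of 5 pairs and higher in replicate 4.

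FAH was higher with I3P than with PP in 5 of 5 pairs, by 0.025 to 0.44. The difference was 0.21, 1.16-fold (interval 0.023 to 0.40, unadjusted p = 0.0296), with an adjusted p = 0.959 without and 0.176 with the block. Among the 48 comparisons of members no other reached an unadjusted p under 0.05 unless the block was used, and then 5 did. Those 5 were AADAT and FAH for I3P against DMSO and against PP, and AADAT for I3P against HPP. The shares of all genes with such a p, first without and then with the block, were 3.4% and 9.74% for I3P against HPP, 5.07% and 12.6% for I3P against PP, and 1.63% and 5.27% for HPP against PP. KYAT3 was higher with HPP than with PP in 5 of 5 pairs, by 0.14 to 0.53, a difference of 0.30 (interval -0.044 to 0.65, adjusted p = 1 without and 0.896 with the block). For I3P against PP it was at 0.30 as well (interval -0.043 to 0.65, adjusted p = 0.987), lower in replicate 3. For the single hydroxyl group that separates HPP from PP, the intervals of the other 7 members lay between -0.28 and 0.30.

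**Figure D3:**
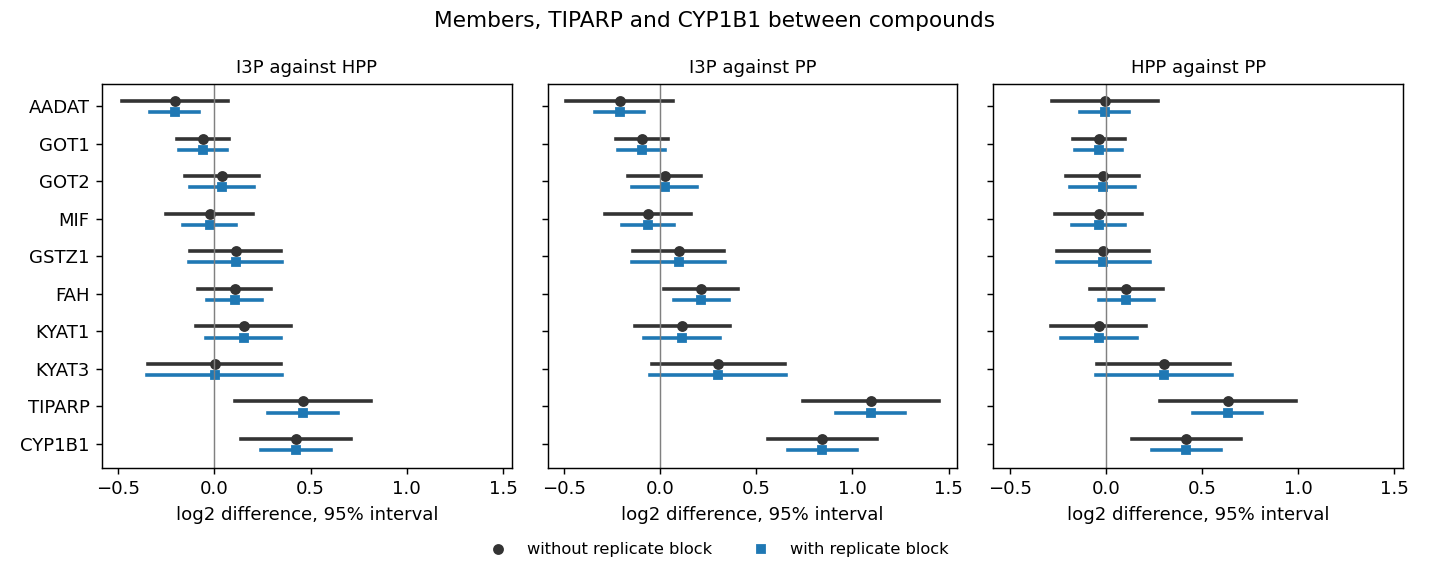
Log2 difference (horizontal axis) between pairs of compounds for the 8 members, TIPARP and CYP1B1 (rows), with 95% intervals without the replicate block (grey circles) and with it (blue squares), 5 arrays per group. AADAT lies at -0.205 and -0.21 for I3P against HPP and PP, and KYAT3 at 0.30 for I3P and for HPP against PP.

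For some members the replicate number, which the labels give as the biological replicate, moved the level more than any compound did. A moderated F test of the 5 numbers, with treatment in the fit, passed for 3 of 8 members, against 46.5% of all genes, so the members' share was not above that of other genes. The 3 were AADAT (adjusted p = 9.78e-05), MIF (adjusted p = 0.00296) and FAH (adjusted p = 0.0375). What differs between the numbers is not given in the sources used here.

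AADAT averaged 9.63, 9.82, 9.95, 9.69 and 9.40 over the 4 arrays of numbers 1 to 5. It was highest in number 3 and lowest in number 5, a difference of 0.55, or 1.46-fold, and number 5 held the lowest array of each treatment. The number took up 75% of the sum of squares of AADAT over the 20 arrays and the treatment 15.7%. Over all genes the medians were 47% for the number and 9.41% for the treatment. MIF averaged 11.735, 11.84, 11.50, 11.715 and 11.90 and was thus lowest in number 3, where AADAT was highest. Number 3 held the lowest MIF array of each treatment, and the number took up 75.2% of the sum of squares and treatment 2.59%. FAH averaged 9.87, 9.90, 9.67, 9.84 and 9.68, with 42.2% of the sum of squares for the number and 30.7% for the treatment, its largest share among the 8 members.

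**Figure D4:**
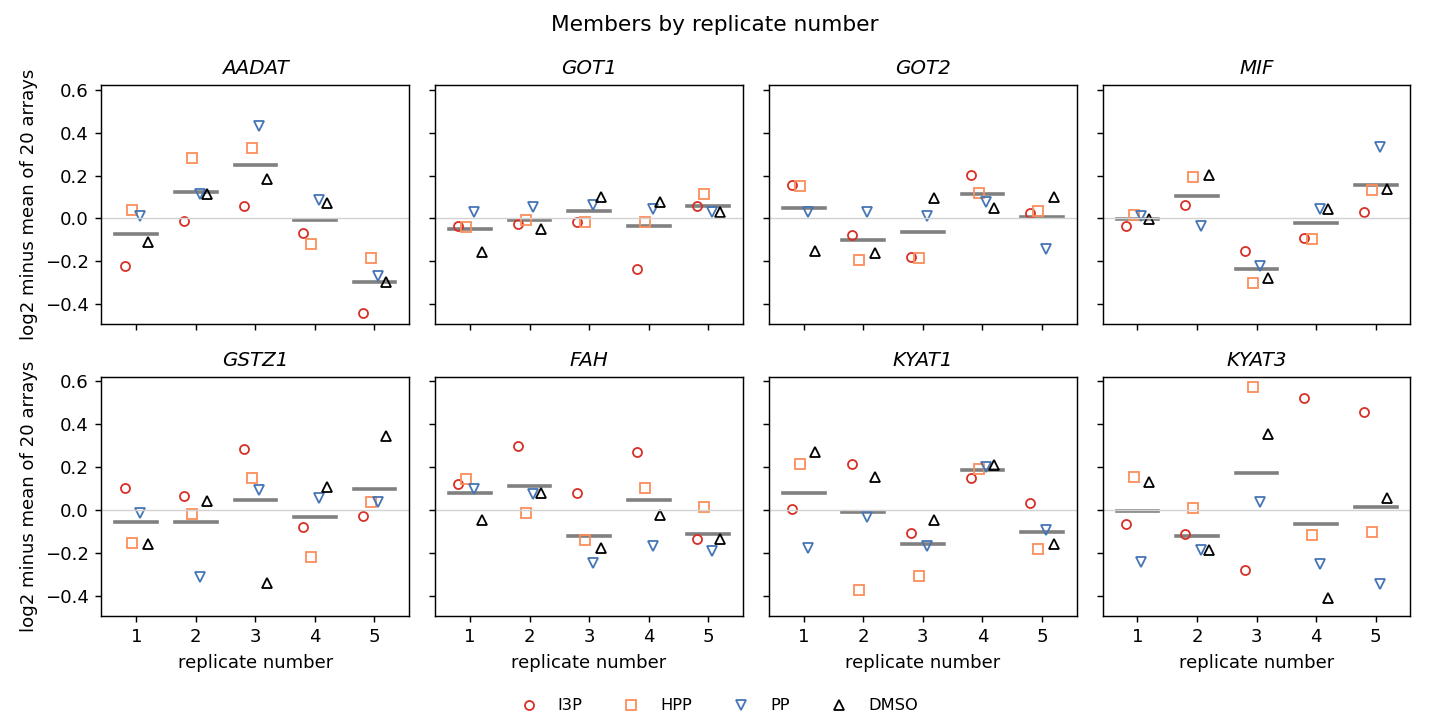
Log2 signal minus the gene's mean over 20 arrays (vertical axis) by replicate number (horizontal axis) for the 8 members, with 1 symbol per treatment and a grey line at the mean of the 4 arrays. AADAT runs from -0.30 in number 5 to 0.25 in number 3, and MIF from -0.24 in number 3 to 0.16 in number 5.

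The AADAT call held in all 25 refits that left out 1 array or 1 number, at an adjusted p of 2.5e-05 to 0.0131. The MIF call was lost without number 3 (adjusted p = 0.18) and held in the other 24. The FAH call held in 8 of 25 and had an adjusted p of 0.0502 to 0.162 in the other 17. Those were without DMSO replicate 2, 3, 4 or 5, HPP replicate 1, 3 or 4, I3P replicate 2 or 5, PP replicate 1, 2, 3 or 5, or the arrays of number 1, 2, 3 or 5. KYAT1 did not pass (adjusted p = 0.0596), and passed in 6 of 25 refits at 0.0181 to 0.0498, namely without HPP replicate 2, I3P replicate 1 or 2, PP replicate 1, or number 1 or 2. GOT2 (adjusted p = 0.231), GOT1 (0.513), KYAT3 (0.654) and GSTZ1 (0.708) did not pass. For GSTZ1 and KYAT3 neither the number, at 13.3% and 12.2% of the sum of squares, nor the treatment, at 6.22% and 19.4%, took up most of the variation.

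**Figure D5:**
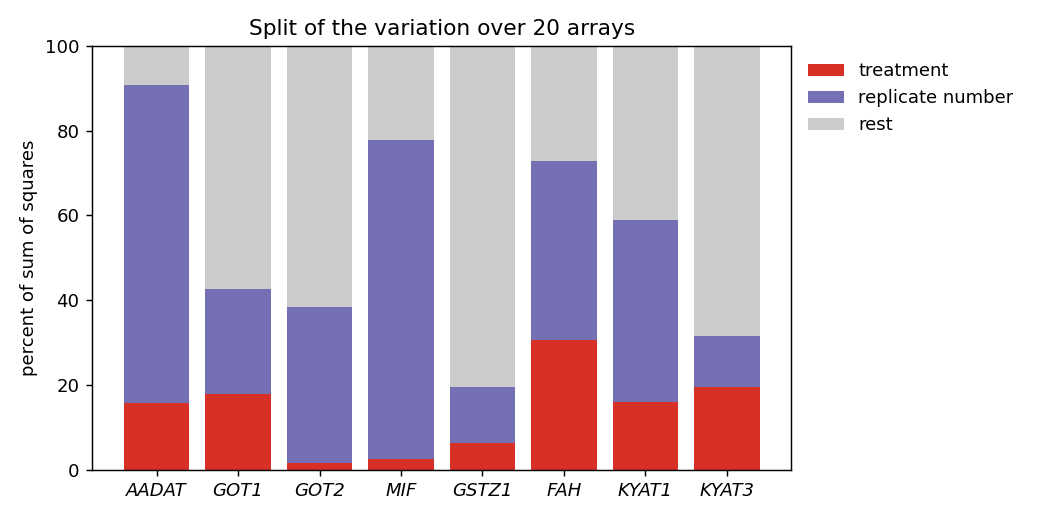
Percent of each member's sum of squares over the 20 arrays (vertical axis) taken up by treatment, replicate number and the rest, stacked to 100. The number takes up 75% for AADAT and 75.2% for MIF, while the rest takes up 80.5% for GSTZ1. Over all genes, not drawn, the medians are 47% for the number and 39.5% for the rest.

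Of the marker lists, the number passed for 3 of 7 measured glioblastoma markers (CD44, FN1 and TNC), for 1 of 3 blood and microglial markers (ITGAM) and for 1 of 5 epithelial and neuronal markers (SNAP25). The share of all genes was 46.5%, so no marker list was above it. Their part in the members' differences was not tested. In bulk RNA fewer cells of a kind and less RNA per cell cannot be told apart.

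Genes whose level ran most like that of a member over the 20 arrays were named by Pearson r, as a description, since arrays of 1 number deviate together and 3 of 11282 genes were picked for each. They were RFX8 (r = 0.904), FBXO5 (0.872) and MRPL35 (0.866) for AADAT, and C1QL1 (0.90), TTC1 (0.871) and VAMP2 (0.866) for MIF. For FAH they were TMEM214 (r = 0.814), the urokinase gene PLAU (0.813) and the transporter gene SLC16A6 (0.809). For KYAT1 they were POP4 (r = 0.788), TPCN1 (0.785) and TM9SF4 (0.776), for GOT2 PDCL (0.788), COMMD8 (0.729) and RETREG3 (0.729), and for GOT1 GHRL (0.776), NSA2 (0.77) and WDR27 (0.764). The values were lower for KYAT3, with MLC1 (r = 0.737), PHF13 (0.707) and CAMSAP2 (0.687), and for GSTZ1, with ZNF703 (0.66), EAPP (0.654) and P3H3 (0.651). No member was among the 3 of another. Between members r ran from -0.537 for GOT1 and FAH to 0.388 for FAH and KYAT1.

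Other enzymes of the same reactions did not pass either. Of 13 other aminotransferases 8 were measured, of 9 genes of phenylalanine and tyrosine breakdown 5, of 21 genes of keto acid reduction and oxidative breakdown 17, of 7 genes of the malate-aspartate shuttle 7 and of 13 genes of the kynurenine pathway 8. GOT1 and GOT2 are in the shuttle list, GSTZ1 and FAH in that of tyrosine breakdown, and AADAT, KYAT1, KYAT3 and GOT2 in the kynurenine list. In each list 0 rose and 0 fell in any of the 6 comparisons, in either fit. The median log2 difference with I3P was -0.156 for the other aminotransferases, 0 for phenylalanine and tyrosine breakdown, -0.041 for keto acid breakdown, -0.014 for the shuttle and -0.029 for the kynurenine pathway, beside 0 over all genes. The genes with the smallest p against DMSO are named for each list, leaving out the members, and none of them passed. Among the other aminotransferases these were GOT1L1, a relative of GOT1 (0.37 with I3P, adjusted p = 0.958), and the branched-chain aminotransferase BCAT1 (-0.16 with I3P, adjusted p = 0.999). In the tyrosine and phenylalanine list these were PCBD2 (-0.19 with I3P) and QDPR (-0.09 with I3P), which recycle the cofactor of phenylalanine hydroxylase (adjusted p = 0.999 each).

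Among keto acid enzymes these were the phosphatase PPM1K, which activates the branched-chain keto acid dehydrogenase (-0.22 with PP), and DLD, the subunit that keto acid dehydrogenases share (-0.20 with HPP, adjusted p = 1 each). In the shuttle these were the carrier SLC25A12 (-0.15 with PP) and the malate dehydrogenase MDH2 (0.083 with HPP, adjusted p = 1 each). In the kynurenine pathway these were the formamidase AFMID (-0.205 with PP) and QPRT (-0.27 with HPP, adjusted p = 1 each). Values for TAT and HPD, which make and oxidise HPP in tyrosine breakdown, were not used here, nor were any for IL4I1, an oxidase that forms aromatic keto acids.

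In RefSeq the gene spans of KYAT1 and of the read-through gene KYAT1-SPOUT1 and LRRC8A overlap, as do those of KYAT3 and RBMXL1, and of MIF and the long non-coding RNA MIF-AS1. AADAT overlaps the long non-coding RNA LOC107986326, and GOT2 the pseudogene RNY5P9. Which of these transcripts a probe set reads is not given in the sources used here, so the levels of these 5 members are uncertain to that extent.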

How the data were processed

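The deposited values are log2 expression values that the authors made with oligo and RMA, per the submitters' processing notes, which name no versions. RMA subtracts background, makes the arrays' distributions equal and reduces the probes of a set to a single value. No probe set mean lay below 7.943, so genes of low signal could not be tested, and RMA can understate changes of dim genes. Background correction could not be varied.

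Of 12770 probe sets 11316 had 1 symbol, and the brightest per gene was kept (11282 genes). Symbols were updated through RefSeq (GRCh38.p14, used for names and promoters). Group means over all 20 arrays were fitted with limma 3.58.1 in R 4.3.3 (lmFit, eBayes). Tests were 2-sided, adjusted by Benjamini-Hochberg over the 11282 genes, with a threshold of 0.05. The fits were also run on simulated data, with changes larger than any member's difference. That run does not show how often changes as small as those of the members would be found. Without the block, p-values measure the spread between arrays that the labels call biological replicates. With the block, and in the test of the numbers, they measure the spread left after the replicate number is taken out.

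The labels number the replicates 1 to 5 in each group. All 30 same-number pairs of arrays correlated above 0.1 in their deviations from group means (0.163 to 0.714, median 0.431), against a median of -0.157 for 120 pairs of different number, so the numbers were taken to pair the arrays. Results are also given with the number as a fixed block, which leaves 12 residual degrees of freedom, against 16 without it. Figures were drawn with matplotlib 3.10.9.

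The members, gene lists and tests were chosen with earlier results of these data known. Named genes were all members, TIPARP, CYP1B1 and AHRR, per list those past the threshold or else the 2 with the smallest p against DMSO, and per member the 3 of highest Pearson r. Alternatives tried were cyclic loess, the block, fits to the 10 arrays of a comparison, equal medians, a filter on dim genes, all probe sets, the mean over probe sets, a variance trend, and leaving out each array or number.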

Additional observations from a re-analysis of the deposited data

Results flagged for a closer look

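In 3 of 32 sets of 5 arrays (8 members in 4 groups) 1 array stood apart from the others of its group by more than 0.71 of the group's range. About 1 in 20 sets do so by chance. GOT1 in HPP replicate 5 was at 10.97, with the other HPP arrays between 10.82 and 10.85. GOT2 in PP replicate 5 was at 11.40, with the others between 11.56 and 11.62. GSTZ1 in PP replicate 2 was at 8.29, with the others between 8.59 and 8.70.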

How the results depend on the processing

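No member passed in any of the 6 comparisons under any of the 33 alternatives. Nor did any in the F test of the 4 groups, which the fits to only 10 arrays do not allow. For these tests every alternative other than the block was fitted without the block. The fit with the block, where members came nearest to the threshold, was thus itself not varied. With the replicate block the count of members was 0 in each comparison. The lowest adjusted p of a member was 0.128, for AADAT with the block. The filter on dim genes left out KYAT1 and GSTZ1, which then have no value. The signs of small differences were less stable. With cyclic loess the log2 difference turned to -0.001 for GOT1 (HPP against DMSO), -0.005 for MIF (PP against DMSO), 0.001 for MIF (I3P against HPP) and -0.015 for KYAT3 (I3P against HPP), and the last to -0.003 with equal medians. Leaving out arrays turned the sign of 24 of the 48 differences in at least 1 setting, besides GOT2 for HPP against DMSO, whose difference of 0 ran from -0.077 to 0.07. The lowest and highest values were, for I3P against DMSO, -0.096 and 0.013 for GOT1, -0.028 and 0.119 for GOT2, -0.069 and 0.18 for GSTZ1, -0.088 and 0.033 for KYAT1 and -0.088 and 0.304 for KYAT3. For HPP against DMSO they were -0.032 and 0.039 for GOT1, -0.106 and 0.041 for MIF, -0.172 and 0.046 for GSTZ1 and -0.001 and 0.207 for KYAT3. For PP against DMSO they were -0.008 and 0.166 for AADAT, -0.028 and 0.08 for GOT2, -0.071 and 0.067 for MIF, -0.142 and 0.059 for GSTZ1 and -0.072 and 0.014 for FAH. For I3P against HPP they were -0.005 and 0.092 for GOT2, -0.098 and 0.026 for MIF and -0.158 and 0.214 for KYAT3, and for I3P against PP -0.02 and 0.079 for GOT2 and -0.124 and 0.014 for MIF. For HPP against PP they were -0.091 and 0.083 for AADAT, -0.064 and 0.036 for GOT2, -0.104 and 0.039 for MIF, -0.09 and 0.053 for GSTZ1 and -0.143 and 0.04 for KYAT1. The count of members that differed between replicate numbers was 3, and 1 to 4 when arrays were left out, and FAH did not pass with cyclic loess (adjusted p = 0.0607). Genes past the threshold for I3P against DMSO numbered 9, 68 with the replicate block, 3 with only 10 arrays and 0 to 10 when arrays were left out. For I3P against PP they numbered 10, 102, 6 and 0 to 15, for I3P against HPP 0, 13, 0 and 0 to 1, for HPP against DMSO 0, and 5 with the block, and for HPP against PP 0, and 3 with the block. The causes were not tested.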

Other observations

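Of the 8 measured aminotransferases outside the members, 6 had an unadjusted p under 0.05 for I3P against DMSO in the fit with the replicate block, where 11% of all genes did, and 1 without the block, where 4.51% did. None passed after adjustment over all genes (limma). This count was picked out, and GPT2, BCAT2, PSAT1 and ABAT were named, after the values were seen. GOT1L1 was at 0.37 in log2 (higher in 4 of 5 pairs, adjusted p = 0.31 with the block) and the alanine aminotransferase GPT2 at 0.18 (higher in 4 of 5, adjusted p = 0.337). The branched-chain aminotransferases BCAT1 and BCAT2 were at -0.16 and -0.22 (lower in 5 of 5 each, adjusted p = 0.326 and 0.395). PSAT1, of serine synthesis, was at -0.155 (lower in 4 of 5, adjusted p = 0.318), and ABAT, which breaks down the transmitter GABA, at -0.33 (lower in 4 of 5, adjusted p = 0.37). With HPP and PP, which share the DMSO arrays with I3P, 0 and 1 of the 8 had such a p with the block. In the DMSO arrays GOT1L1, GPT2, BCAT2 and ABAT averaged 8.485, 8.84, 8.35 and 8.85, below the array medians of 9.23 to 9.28. BCAT1 and PSAT1 averaged 10.47 and 10.92 there. How near the dim genes lay to background was not tested.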
